A study of Mus musculus with 3 samples.

Results

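The genes described are 9 subunits of voltage-gated calcium channels, with the binding partners of the gabapentinoid drugs among them. They are Cacna2d1, Cacna2d2 and Cacna2d3 (α2δ subunits), Cacna1a, Cacna1b, Cacna1c and Cacna1h (pore-forming α1 subunits), Cacnb3 (a β subunit) and Cacng2 (a γ subunit). They were taken by gene symbol from the 31053 genes of the count matrices, and each symbol was found. The data came from dissociated mouse dorsal root ganglia (DRGs), the ganglia that hold the cell bodies of sensory neurons, measured by droplet-based single cell RNA sequencing (10x Chromium, 3′ chemistry). There was 1 library from untreated (naïve) mice, 1 library 7 days after spared nerve injury (SNI, in which branches of the sciatic nerve are cut and a branch is spared) and 1 library 14 days after SNI. Each library pooled 8 DRGs of levels L3 and L4 from 2 male C57BL/6J mice aged 13 weeks, and SNI was made on both sides, so that DRGs of injured mice hold cut and spared neurons together. The injury, sex and age are those of the sample labels. The study's text names both spared nerve injury and partial ligation of the sciatic nerve for these libraries, and female mice for its animals in general. Because a condition had 1 library, no test between conditions was possible, and mouse, dissection and condition cannot be told apart.

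A voltage-gated calcium channel is built around an α1 subunit, which forms the pore and senses the voltage. The extracellular α2δ subunits and the intracellular β subunits carry the complex to the membrane and adjust its gating. In sensory neurons these channels control transmitter release in the spinal cord and the firing of the cell. Gabapentin and pregabalin, which are used against neuropathic pain, bind the α2δ-1 and α2δ-2 proteins, encoded by Cacna2d1 and Cacna2d2.

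Sequencing gave 23107376 unique molecular identifiers (UMIs, each counting 1 captured mRNA molecule) over 3748 barcodes in the naïve library. The injured libraries held 22343246 UMIs over 3281 barcodes at day 7 and 36550911 UMIs over 4908 barcodes at day 14. Cells were kept where 500 genes or more were detected, mitochondrial transcripts took no more than 20% of the UMIs and no doublet was called. This left 3123, 2650 and 3799 cells with medians of 3059, 3972 and 4174 UMIs. Of the kept cells, 7 barcode sequences occurred in more than 1 library. Cells were assigned to classes by fixed marker genes, and the classes are named as neuron-like, satellite glia-like and so on. The neuron-like class held 122 naïve cells, 170 cells at day 7 and 143 cells at day 14. In each library all 8 neuron markers were above the other cells, by at least 49.2-fold, 39.2-fold and 45.1-fold. The gate itself used these markers, so they had to be high and are no separate check of the class. Of these cells 13, 25 and 10 lay near the limit of the gate.

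The neuron-like cells of day 7 stood apart in depth. Their median was 3064.5 UMIs, against 70214.5 in the naïve library and 80460 at day 14, since 113 of the 170 cells had under 10000 UMIs. In the naïve library 17 cells and at day 14 25 cells were that shallow. A cluster of cells that came mostly from day 7 held 98 of the 170 neuron-like cells there, with a median of 1441.5 UMIs, but 8 of 122 naïve cells and 10 of 143 day 14 cells. Levels are therefore given as CPM, the UMIs of a gene relative to all UMIs of the class and scaled to 1000000, in which deep cells weigh most, and main values are repeated for the 105, 57 and 118 neuron-like cells with at least 10000 UMIs. Intervals are exact 95% intervals of counting error alone and do not hold the spread between cells, mice or libraries.

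All 9 subunits were higher in neuron-like cells than in the other classes as a whole. By the rule used throughout (at least 2-fold with a counting interval of the log2 ratio that leaves out 0, among genes with at least 20 UMIs), 9 of 9 were higher in the naïve library, where 21.6% of all genes tested were. The same count of 9 of 9 stood beside 20.5% of all genes at day 7 and 21.6% at day 14. The median log2 ratio over the 9 genes was 5.45 in the naïve library, 5.04 at day 7 and 4.75 at day 14, beside −0.29, −0.30 and −0.26 over all genes tested. Neuron-like cells held 40.4%, 33.2% and 39.6% of the UMIs of all kept cells. Of the UMIs of Cacna1b, they held 98.7% in the naïve library, 97.4% at day 7 and 98.2% at day 14. The share was lowest for Cacna1a, at 74.5%, 67.3% and 75.6%, and for Cacna1h, at 78.0%, 55.1% and 66.8%.

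**Figure D1:**
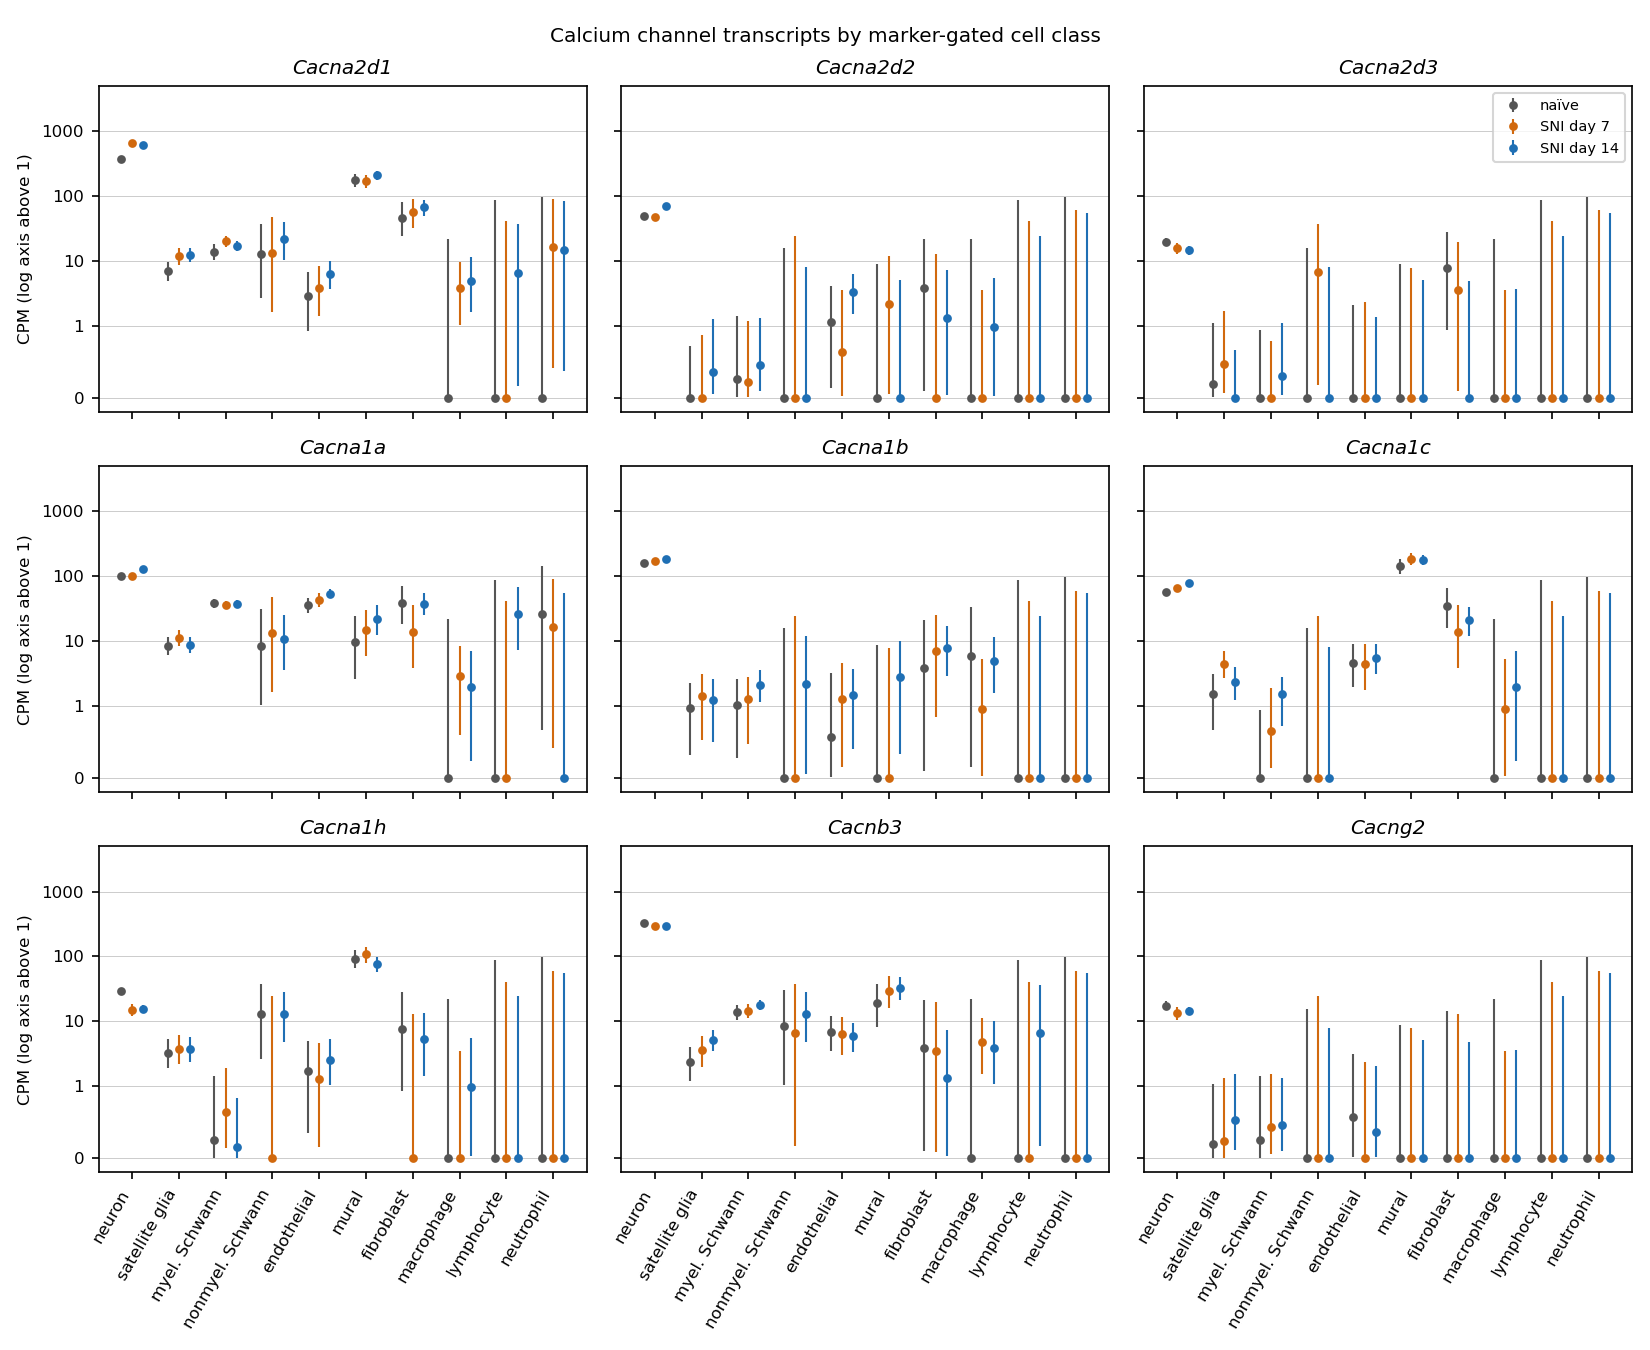
CPM of each of the 9 genes (vertical axis, logarithmic above 1 CPM) in 10 marker-gated cell classes (horizontal axis) of the naïve, day 7 and day 14 libraries. Points are 1 library each and bars are 95% Poisson intervals. Neuron-like cells carried all 9 genes, and mural-like cells carried Cacna2d1, Cacna1c and Cacna1h at levels between 77.0 and 210 CPM.

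Cacna2d1 encodes α2δ-1, the high-affinity gabapentin receptor, and lies at chr5:15934691-16374511 on the + strand (GRCm38). Its RefSeq promoter is shown because this gabapentin-binding subunit was the member farthest above naïve on both days. The 250 bases before the start site (chr5:15934441-15934690, + strand, GRCm38.p6) are printed with capitals for the GC box letters GGGCGG or CCGCCC and for the letters TGACG, which begin the cyclic AMP response element.
Cacna2d1 promoter: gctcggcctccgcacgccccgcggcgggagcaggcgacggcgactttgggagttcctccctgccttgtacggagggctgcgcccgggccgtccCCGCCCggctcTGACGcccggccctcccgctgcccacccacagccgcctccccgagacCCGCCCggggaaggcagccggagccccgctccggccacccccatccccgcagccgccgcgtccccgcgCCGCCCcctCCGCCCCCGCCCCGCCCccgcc
The stretch was 82.4% G and C, against a mean of 53.2% over the promoters of the table, and held 6 matches of the GC box and 1 of TGACG on either strand. Over the 10 promoters listed for 7 of the 9 genes, GGGCGG was found in 6, and in 32.7% of all 32851 promoters of that length. TGACG was found in 3 of the 10 (Cacna2d1, Cacna1b and Cacna1c) and in 17.8% of all. The full element TGACGTCA (1.55% of all) and the AP-1 letters TGANTCA (6.75% of all), which Atf3 and Jun proteins are known to bind, were found in 0 of the 10. These letters were searched on both strands, TGACG also lies within TGACGTCA, and a match is only a description of the sequence.

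In neuron-like cells Cacna2d1 stood at 367 CPM in the naïve library (95% interval 354 to 380, 3106 UMIs), 654 CPM at day 7 (634 to 674, 4259 UMIs) and 604 CPM at day 14 (591 to 618, 7643 UMIs). Both injured libraries were above the naïve one, and the 3 counting intervals did not overlap. The fold over naïve was 1.78 at day 7 (log2 0.83, 0.77 to 0.90) and 1.65 at day 14 (log2 0.72, 0.66 to 0.78), which is under the 2-fold rule on both days. Both comparisons used the same naïve library. Among cells with at least 10000 UMIs the levels were 364, 642 and 603 CPM, so the order of the libraries did not rest on the shallow cells. The shallow cells alone had 746 CPM in the naïve library (42 UMIs), 929 CPM at day 7 (248 UMIs) and 683 CPM at day 14 (61 UMIs). No single cell held more than 3.93%, 7.56% and 3.22% of the gene's neuron-like UMIs in the naïve, day 7 and day 14 library.

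The share of neuron-like cells with a Cacna2d1 UMI was 95.1% in the naïve library, 84.1% at day 7 and 93.0% at day 14. With each cell thinned to 10000 UMIs and shallower cells left out, it was 94.0%, 94.1% and 95.0%, a depth at which nearly every cell had a UMI and the share could hardly differ. Thinned to 2300 UMIs, it was 57.6% in the naïve library (114 cells), 70.9% at day 7 (94 cells) and 66.9% at day 14 (130 cells), with 8, 76 and 13 shallower cells left out. At that depth both injured libraries were above the naïve one. In single deep cells the level ran from 30.1 CPM through a median of 334 CPM to 1587 CPM in the naïve library. At day 7 the lowest, median and highest cells were at 26.9, 424 and 3657 CPM, and at day 14 at 0, 507 and 2473 CPM. The ranges overlapped widely, and 5 of 57 cells at day 7 and 11 of 118 at day 14 lay above the highest naïve cell.

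Cacna2d2 encodes α2δ-2, the other gabapentinoid-binding subunit, at chr9:107399612-107529343 (+). Its level in neuron-like cells was 49.3 CPM in the naïve library (44.6 to 54.2), 46.7 CPM at day 7 (41.6 to 52.2) and 69.8 CPM at day 14 (65.3 to 74.5). The day 7 library overlapped the naïve one (log2 −0.08, −0.30 to 0.14), whereas day 14 was 1.42-fold above it (log2 0.50, 0.33 to 0.67). An exon of Gm17141, on the opposite strand, overlaps an exon of this gene, and whether counting used the strand is not stated.

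Cacna2d3 encodes α2δ-3, which is not among the gabapentinoid-binding subunits, at chr14:28904943-29721864 (−). It was counted at 19.6 CPM in the naïve library (16.7 to 22.8), 15.7 CPM at day 7 (12.8 to 19.0) and 14.5 CPM at day 14 (12.4 to 16.7). Both injured libraries were lower, and the interval of the log2 ratio included 0 at day 7 (−0.32, −0.69 to 0.04) and left it out at day 14 (−0.44, −0.75 to −0.13).

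The α1 subunits of the release channels stayed within 0.36 of naïve on the log2 scale. Cacna1b (Cav2.2, the N-type channel and target of ziconotide; chr2:24603887-24763152, −) was at 162 CPM in the naïve library (154 to 171), 170 CPM at day 7 (160 to 180) and 182 CPM at day 14 (175 to 190). Its log2 ratio over naïve was 0.07 at day 7 (−0.05 to 0.18) and 0.17 at day 14 (0.07 to 0.27). Cacna1a (Cav2.1, the P/Q-type channel; chr8:84388440-84640246, +) was at 99.7 CPM in the naïve library (93.1 to 107), 99.96 CPM at day 7 (92.4 to 108) and 128 CPM at day 14 (122 to 134). Day 14 alone stood above naïve for this gene, with a log2 ratio of 0.36 (0.24 to 0.48).

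Cacna1c (Cav1.2, an L-type channel; chr6:118587240-119196418, −) was at 56.2 CPM in the naïve library (51.3 to 61.5), 65.7 CPM at day 7 (59.6 to 72.2) and 78.7 CPM at day 14 (73.9 to 83.8). Its log2 ratio over naïve was 0.23 at day 7 (0.03 to 0.42) and 0.49 at day 14 (0.33 to 0.65).

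Cacna1h (Cav3.2, a T-type channel that opens near the resting potential; chr17:25374285-25433783, −) was the member with the lowest ratio on both days. It was counted at 29.3 CPM in the naïve library (25.8 to 33.2, 248 UMIs), 15.05 CPM at day 7 (12.2 to 18.3, 98 UMIs) and 15.6 CPM at day 14 (13.5 to 17.9, 197 UMIs). The injured libraries lay close together and below naïve, at a fold of 0.514 on day 7 (log2 −0.96, −1.31 to −0.62) and 0.531 on day 14 (log2 −0.91, −1.19 to −0.64). At day 7 a single cell held 18.4% of its UMIs. Among cells with at least 10000 UMIs the levels were 29.3, 15.4 and 15.5 CPM. Exons of Tpsg1, on the opposite strand, overlap exons of Cacna1h.

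Cacnb3 encodes β3, a β subunit often paired with N-type channels, at chr15:98630840-98644529 (+). Its level was 324 CPM in the naïve library (312 to 336), 298 CPM at day 7 (285 to 312) and 297 CPM at day 14 (287 to 306), a log2 difference of −0.12 (−0.20 to −0.03) and −0.13 (−0.20 to −0.06). Cacng2 encodes stargazin, known mainly as a carrier of AMPA receptors, at chr15:77991748-78120028 (−). It was at 17.5 CPM in the naïve library (14.8 to 20.5), 13.2 CPM at day 7 (10.6 to 16.3) and 14.5 CPM at day 14 (12.5 to 16.8), and an exon of the antisense gene A730060N03Rik overlaps it.

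By the 2-fold rule, 0 of the 9 genes were higher and 0 were lower at day 7, beside 3.59% of 12564 genes tested that were higher and 1.47% that were lower. At day 14 the counts were again 0 and 0, beside 6.02% of 13257 genes higher and 1.31% lower. The rule's outcome depended on how cells were weighted at day 7. With the mean of per-cell CPM, which weighs shallow cells like deep ones, Cacna2d1 passed as higher (log2 1.10, beside 10.3% of genes), and Cacna2d2 (−1.02), Cacna2d3 (−1.33) and Cacna1h (−2.19) passed as lower (beside 13.1%). The interval there was that of the pooled counts moved to the new ratio, which does not hold the error of a mean over cells. The 113 shallow cells of day 7 held 2 UMIs of Cacna2d2, 6 of Cacna2d3 (all in 1 cell) and 2 of Cacna1h. Cacna1h also passed as lower at day 14 under a stricter cell filter (log2 −1.08, beside 1.71%). The median log2 ratio of the 9 genes was −0.08 at day 7 and 0.17 at day 14, against 0.03 and 0.09 over all genes tested. The libraries themselves differed in their injury genes, 10 of 10 of which were higher by the rule on both days. Atf3, a transcription factor of axotomised neurons, was at 12.3 CPM in the naïve library, 164 CPM at day 7 and 106 CPM at day 14. Sprr1a, a gene of regenerating axons, was at 7.21, 616 and 273 CPM. The naïve levels rested on few cells. Among naïve cells with at least 10000 UMIs, a single cell held 95.1% of 61 Sprr1a UMIs. For Atf3 a single cell held 40.8% of 103 UMIs there.

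**Figure D2:**
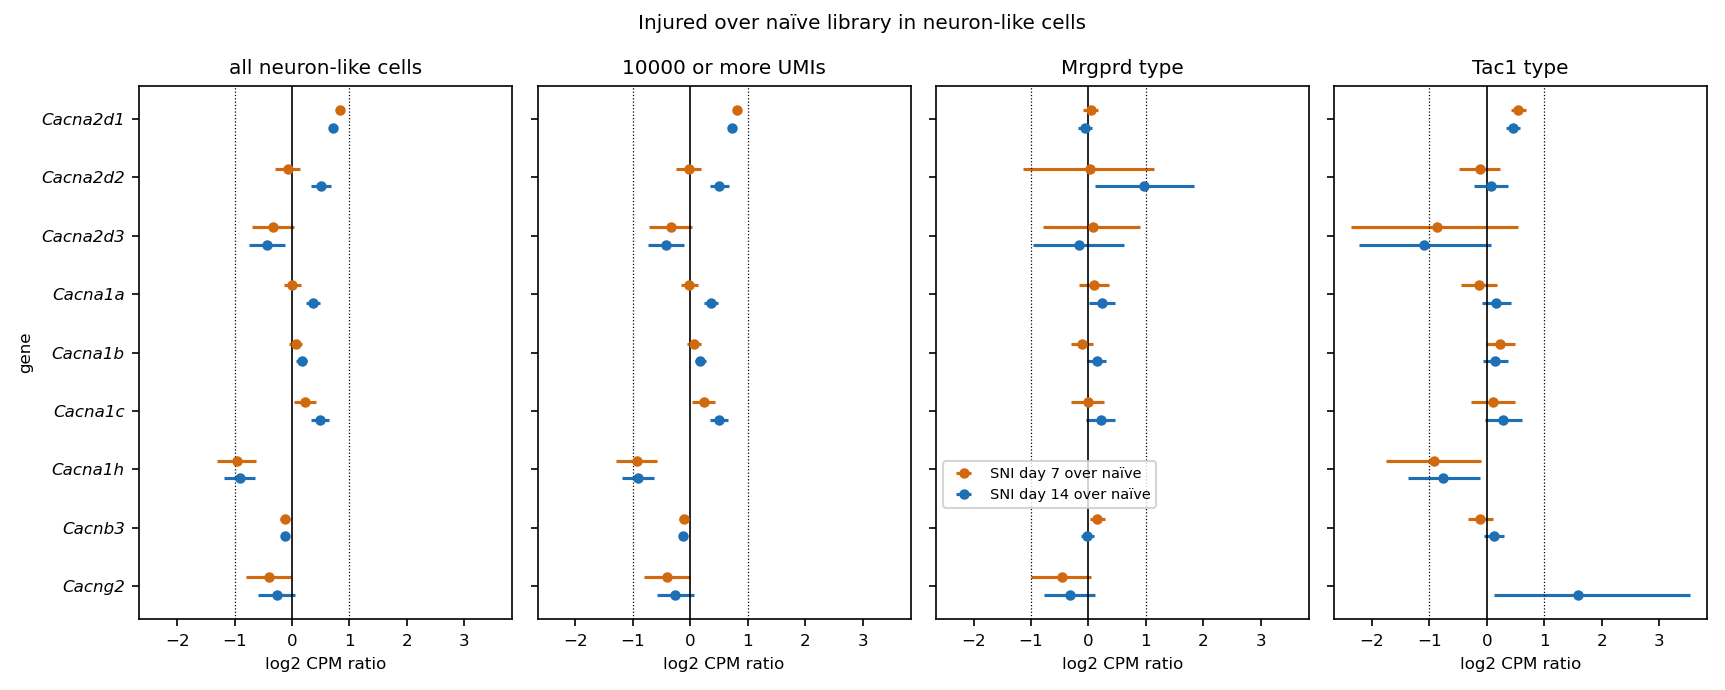
Log2 ratio of CPM, injured over naïve library (horizontal axis), for the 9 genes (vertical axis) in all neuron-like cells, in those with at least 10000 UMIs and in the Mrgprd and Tac1 types. Bars are 95% counting intervals, dotted lines mark 2-fold, and genes with under 20 UMIs in both libraries together are left out. Cacna2d1 lay at 0.83 and 0.72 in all neuron-like cells, at 0.04 and −0.06 in the Mrgprd type and at 0.55 and 0.46 in the Tac1 type.

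Other calcium handling genes were taken from fixed lists. Of 17 further channel subunit genes, 9 could be compared at day 7, with 1 higher and 1 lower, and 10 at day 14, with 3 higher and 1 lower. For all 3 lists the shares over all genes tested are those above, 3.59% higher and 1.47% lower at day 7 and 6.02% higher and 1.31% lower at day 14. Those past the rule on both days were Cacna1i and Cacnb2, and the γ subunits Cacng3 and Cacng4 were higher at day 14 only. Cacna1i, another T-type α1 subunit, was at 24.3 CPM in the naïve library, 9.98 CPM at day 7 and 10.7 CPM at day 14 (log2 −1.29, −1.71 to −0.88, and −1.19, −1.51 to −0.87). Like Cacna1h, it was lower in both injured libraries. It was among the 10 leading genes of the cell cluster led by C1ql4 and Th, which held 34 naïve, 10 day 7 and 13 day 14 cells, and the part of that cluster in its lower level was not tested. Cacnb2, a β subunit, was at 0.945 CPM (8 UMIs), 4.45 CPM (29 UMIs) and 5.53 CPM (70 UMIs), with log2 ratios of 2.24 (1.07 to 3.58) and 2.55 (1.49 to 3.82). Of 13 ligands and regulators, 8 were compared at day 7 with 0 higher and 1 lower (Rem2), and 9 at day 14 with 2 higher (Thbs2 and Stac) and 0 lower. Of 19 genes of calcium stores and extrusion, 16 were compared at day 7 with 1 higher (Itpr3), and 17 at day 14 with 3 higher, and 0 were lower on either day. The 3 were Itpr1, the inositol trisphosphate receptor, at a log2 ratio of 1.597 (1.26 to 1.95), Ryr2, a ryanodine receptor, at 1.005 (0.48 to 1.56), and Atp2b4, a plasma membrane calcium pump, at 1.01 (0.89 to 1.13). The genes beyond Cacna1i and Cacnb2 passed on 1 day only and were named after their values were seen.

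Neuron-like cells were divided by fixed markers into nonpeptidergic nociceptors (Mrgprd type), peptidergic nociceptors (Tac1 type), C-low threshold mechanoreceptors (Th type), itch neurons (Nppb type) and large neurons (Nefh type). The Mrgprd type held 40 naïve, 57 day 7 and 23 day 14 cells, the Tac1 type 30, 22 and 51, the Th type 31, 10 and 15, and the Nppb type 7, 4 and 18. The makeup of the class thus differed between the libraries. The Th type was 25.4% of naïve neuron-like cells, 5.88% at day 7 and 10.5% at day 14, and 59 of 170 cells of day 7 had no type, with a median of 1216 UMIs. Among cells with at least 10000 UMIs the Th type was 29 of 105 naïve, 9 of 57 day 7 and 13 of 118 day 14 cells. Its share was thus lower in both injured libraries there too, but not lowest at day 7.

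The span of Cacna2d1 over the Mrgprd, Tac1 and Th types of a library was wider than its span over the libraries within any of them. In the Mrgprd type it was at 336 CPM in the naïve library, 345 CPM at day 7 and 323 CPM at day 14, with log2 ratios of 0.04 (−0.09 to 0.17) and −0.06 (−0.18 to 0.06). In the Th type it was at 229, 245 and 264 CPM, with log2 ratios of 0.10 (−0.13 to 0.32) and 0.20 (0.01 to 0.39). The Tac1 type was the highest of these types in every library, at 620 CPM in the naïve library, 906 CPM at day 7 and 851 CPM at day 14. Here both injured libraries were above the naïve one, by log2 0.55 (0.42 to 0.68) and 0.46 (0.34 to 0.57). The Nppb type was at 251, 216 and 362 CPM, from 145, 100 and 573 UMIs. Weighting the Mrgprd, Tac1 and Th types equally gave a mean log2 ratio of 0.23 at day 7 and 0.20 at day 14, in place of 0.83 and 0.72 over all neuron-like cells. This mean leaves out all other neuron-like cells, among them those of several types and those without a type. Type markers can fall after injury, so injured cells may be among those left out, and this was not tested.

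The remaining Cacna2d1 transcripts came from cells outside these types. Cells with markers of several types were at 1075 CPM in the naïve library (6 cells), 1159 CPM at day 7 (14 cells) and 985 CPM at day 14 (18 cells). Cells without a type were at 663 CPM (4 cells, 3 UMIs), 2228 CPM (59 cells) and 1104 CPM (9 cells). At day 7 a single cell without a type held 67.3% of their Cacna2d1 UMIs. Of the large neurons, 4, 4 and 9 in number, 1 cell at day 7 held 91.1% of 224 UMIs and 1 cell at day 14 held 51.5% of 365 UMIs, so no level is drawn from them. The 5 cells of day 7 above the highest naïve cell were 2 without a type, 2 with several types and 1 large neuron. Of the 11 such cells of day 14, 6 were of the Tac1 type, 3 of several types and 2 without a type.

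**Figure D3:**
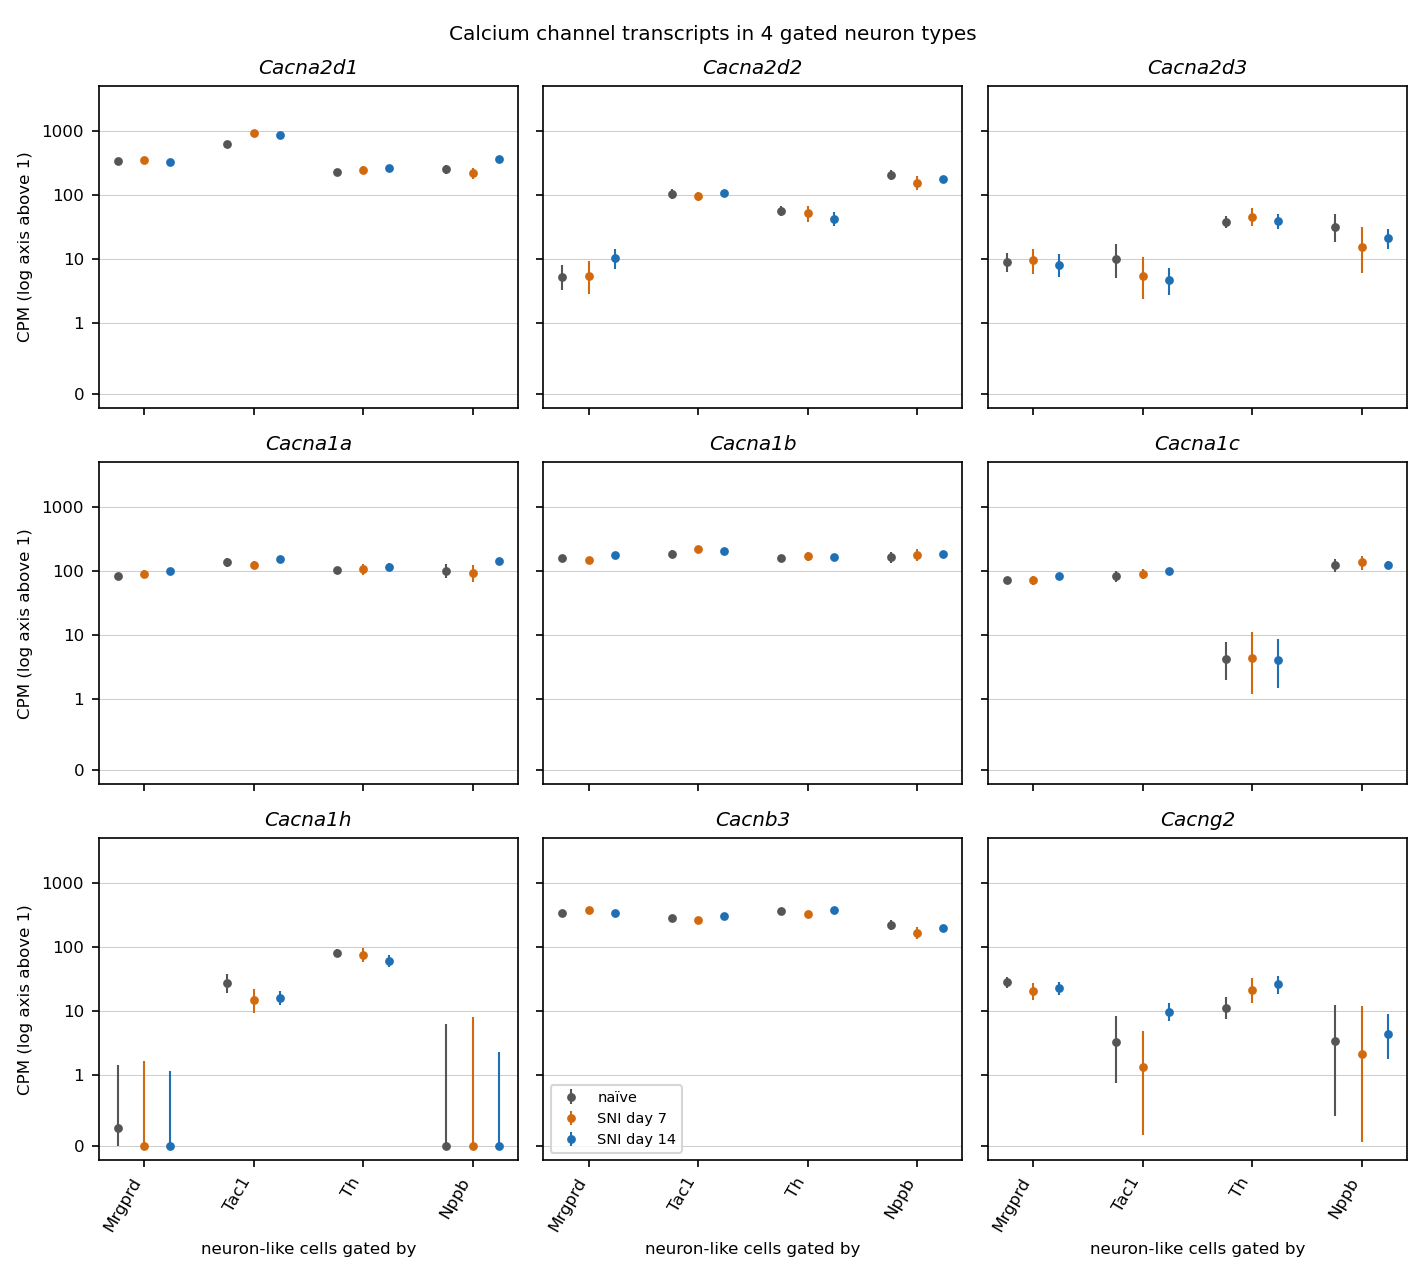
CPM of each of the 9 genes (vertical axis, logarithmic above 1 CPM) in the Mrgprd, Tac1, Th and Nppb types (horizontal axis) of the 3 libraries. Points are 1 library each and bars are 95% Poisson intervals. Cacna1h was near 0 in the Mrgprd and Nppb types and between 60.4 and 80.0 CPM in the Th type, and Cacna1c was lowest in the Th type.

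Several other members differed more sharply between the types. Cacna1h was at 80.0, 75.8 and 60.4 CPM in the Th type of the naïve, day 7 and day 14 libraries and at 27.7, 14.7 and 16.3 CPM in the Tac1 type. It had 1, 0 and 0 UMIs in the Mrgprd type and 0 UMIs in the Nppb type of each library. Within the Th type its log2 ratio over naïve was −0.08 at day 7 (−0.50 to 0.32) and −0.41 at day 14 (−0.78 to −0.04). In the Tac1 type it was −0.91 (−1.75 to −0.09) and −0.76 (−1.38 to −0.12). Its level was thus below naïve in the Tac1 type on both days and in the Th type at day 14, and the part of the smaller share of Th type cells in the level of the whole class was not tested.

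Cacna1c was lowest in the Th type, where Cacna1h was highest, and highest in the Nppb type, where Cacna1h had no UMI. It was at 4.17, 4.33 and 4.03 CPM in the Th type, at 71.9, 71.4 and 83.1 CPM in the Mrgprd type, at 83.0, 89.0 and 102 CPM in the Tac1 type and at 123, 136 and 123 CPM in the Nppb type. No interval of its log2 ratio over naïve left out 0 in any of these types.

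Cacna2d2 was highest in the Nppb type, at 203, 153 and 177 CPM, and lowest in the Mrgprd type, at 5.24, 5.35 and 10.2 CPM. Between them lay the Tac1 type at 102, 94.4 and 108 CPM and the Th type at 56.3, 50.9 and 41.6 CPM. At day 14 the whole class was above naïve, whereas the log2 ratio was 0.07 in the Tac1 type (−0.22 to 0.37), −0.44 in the Th type (−0.89 to 0.01) and −0.20 in the Nppb type (−0.51 to 0.13). In the Mrgprd type, where the gene was lowest, it was 0.96 (0.11 to 1.84), from 20 naïve and 32 day 14 UMIs. Cacna2d3 was highest in the Th type, at 37.5, 45.5 and 38.9 CPM, beside 8.92, 9.37 and 7.96 CPM in the Mrgprd type.

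Cacng2 was at 28.3, 20.5 and 22.6 CPM in the Mrgprd type and at 11.3, 21.7 and 26.2 CPM in the Th type. In the Tac1 type it was at 3.25 CPM (4 UMIs), 1.34 CPM (2 UMIs) and 9.84 CPM (41 UMIs). The Mrgprd type was thus above the Th type in the naïve library and not in the injured ones. The log2 ratio of day 14 over naïve was 1.22 in the Th type (0.47 to 1.98) and 1.597 in the Tac1 type (0.13 to 3.54), while it was −0.32 in the Mrgprd type (−0.78 to 0.12). Equal weights for these 3 types gave a mean log2 ratio of 0.83 at day 14, in place of −0.27 (−0.59 to 0.06) over all neuron-like cells. Cacna1a, Cacna1b and Cacnb3 were spread evenly by comparison. For Cacnb3 the Mrgprd type was at 342, 381 and 338 CPM, the Th type at 364, 330 and 383 CPM and the Nppb type at 225, 168 and 200 CPM. Cacna1b ranged from 147 CPM (Mrgprd type, day 7) to 220 CPM (Tac1 type, day 7) over the 4 types and 3 libraries.

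Neuron-like cells with at least 1 UMI of Atf3 were then set beside those without, since cut and spared neurons lie in the same ganglia. There were 27 cells with and 95 without Atf3 in the naïve library, 56 and 114 at day 7, and 64 and 79 at day 14. Detection depended on depth, as median UMIs were 94486 against 46055, 34004.5 against 2081.5, and 103619 against 57675. It also went with type, as 12 of the 27 naïve cells with Atf3 were of the Th type and 1 was of the Tac1 type, while at day 14 21 of 64 were Tac1, 13 Nppb, 8 Th and 4 Mrgprd.

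Cacna2d1 was lower in cells with Atf3 than in cells without in the naïve library, at 321 against 389 CPM (log2 −0.28, −0.39 to −0.16). In both injured libraries it was higher, at 731 against 558 CPM at day 7 (log2 0.39, 0.30 to 0.48) and 707 against 475 CPM at day 14 (log2 0.57, 0.50 to 0.64). Cells with at least 10000 UMIs gave log2 ratios of −0.27, 0.43 and 0.58. The median cell went the other way at day 7. It was at 328 CPM in the 30 deep cells with Atf3 and 437 CPM in the 27 without, although the upper quartile was 1135 against 750 CPM. Deep day 7 cells with 1 to 5 Atf3 UMIs lay at 26.9 to 483 CPM, apart from a cell at 2595 CPM. Such Atf3 counts also occurred in naïve cells. Day 7 cells with 8 or more Atf3 UMIs lay at 424 to 3657 CPM. The former were mostly of the Th, Mrgprd and Nppb types, and the latter were of other types or without a type. The parts of Atf3 level and type in the reversed median were not tested. All 5 cells of day 7 above the highest naïve cell, and 10 of the 11 such cells of day 14, had an Atf3 UMI. At day 14 the medians were 655 CPM in 62 cells and 458 CPM in 56 cells.

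**Figure D4:**
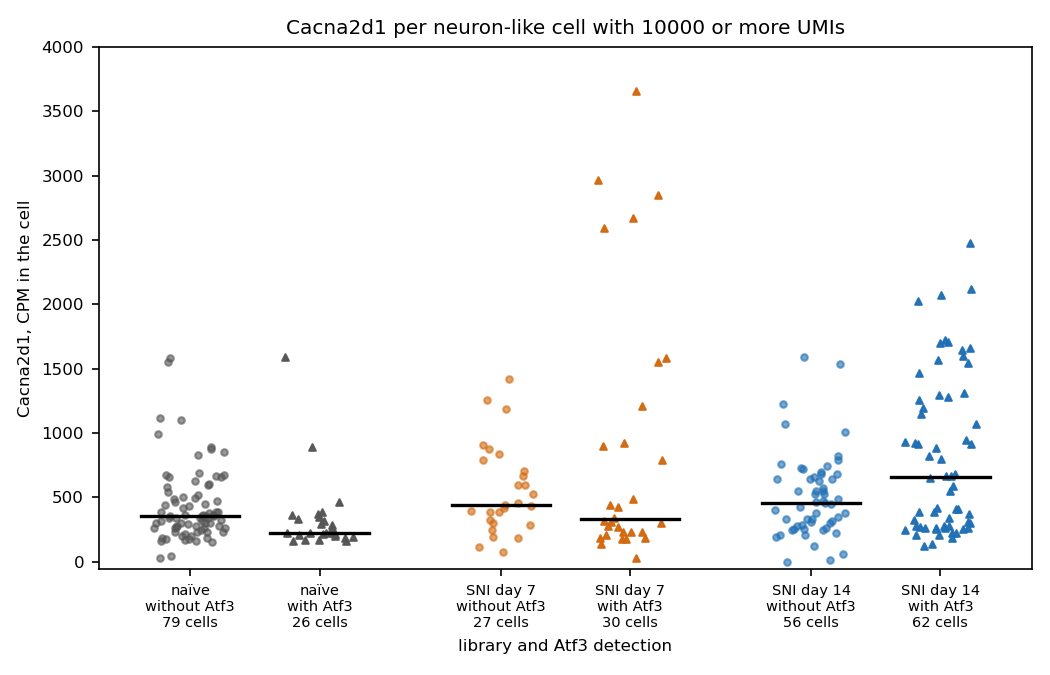
Cacna2d1 in single neuron-like cells with at least 10000 UMIs (vertical axis, CPM in the cell), by library and by detection of Atf3 (horizontal axis). Each circle (without Atf3) or triangle (with Atf3) is a cell, and black lines are medians. Cells above the highest naïve cell at 1587 CPM occurred 5 times at day 7 and 11 times at day 14.

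Within the types the difference was not the same. Among deep Tac1 cells Cacna2d1 was at 930 CPM with Atf3 (5 cells) and 893 CPM without (11 cells) at day 7, a log2 ratio of 0.06 (−0.10 to 0.22). At day 14 it was at 938 CPM with Atf3 (21 cells) and 744 CPM without (21 cells), a log2 ratio of 0.33 (0.24 to 0.43). In the naïve library the ratio was −0.90 (−1.58 to −0.29), with 1 cell that had Atf3. Among deep Mrgprd cells the log2 ratio was −0.19 in the naïve library (−0.39 to 0.00), −0.23 at day 7 (−0.45 to 0.00) and −0.17 at day 14 (−0.37 to 0.03). On the injured days it lay on the other side of 0 from the whole class. However, each of these Mrgprd cells with Atf3 had only 1 or 2 Atf3 UMIs, and in the naïve library 1. The split therefore cannot show the level in Mrgprd cells with much Atf3.

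Of the 9 genes, 1 was higher by the 2-fold rule in naïve cells with Atf3, beside 1.97% of genes tested, and 0 were lower, beside 3.28%. It was Cacna2d3, at 29.99 against 14.7 CPM (log2 1.02, 0.57 to 1.48). At day 7 2 genes were higher, beside 5.04%, and 0 lower, beside 2.77%. They were Cacna2d3, at 23.8 against 5.51 CPM (log2 2.11, 1.33 to 2.98), and Cacna1h, at 20.2 against 8.61 CPM (log2 1.23, 0.56 to 1.95). Of the 4 types above, both were highest in the Th type at day 7, where 8 of its 10 cells had Atf3. Among deep Mrgprd cells the log2 ratio of Cacna2d3 was 0.19 in the naïve library (−1.09 to 1.34) and 0.18 at day 7 (−1.21 to 1.56). At day 14 it was 0.93 there (−0.36 to 2.17). In deep Tac1 cells, which had too few UMIs of Cacna2d3 for the rule, it was 2.70, 3.53 and 1.63. With a UMI of Atf3 or Sprr1a in place of Atf3, Cacna1h no longer passed the rule at day 7 (log2 0.88, 0.09 to 1.75). Among deep Tac1 cells it lay on the other side, at 7.14 against 19.5 CPM at day 7 (log2 −1.45, −3.47 to 0.15) and 12.0 against 20.9 CPM at day 14 (log2 −0.80, −1.57 to −0.06). At day 14 0 genes were higher, beside 3.58%, and 0 lower, beside 3.02%, with Cacna2d3 at 18.1 against 9.97 CPM (log2 0.86, 0.39 to 1.34) and Cacna1h at 14.8 against 16.6 CPM. Cacnb3 was lower in cells with Atf3 in both injured libraries, at 254 against 354 CPM at day 7 (log2 −0.48, −0.61 to −0.35) and 282 against 315 CPM at day 14 (log2 −0.16, −0.26 to −0.07). The mean of per-cell CPM turned the day 7 ratio to 0.08, and in deep Tac1 cells the day 14 ratio was −0.02 (−0.18 to 0.14). In deep Tac1 cells, Cacna2d2 was also lower with Atf3, at 48.2 against 124 CPM at day 7 (log2 −1.36, −2.02 to −0.74) and 91.7 against 129 CPM at day 14 (log2 −0.49, −0.76 to −0.21). In the naïve library it was higher in the single such cell with Atf3, at 258 against 93.8 CPM (log2 1.46, 0.63 to 2.21). Over all neuron-like cells the log2 ratio of Cacna2d2 was 0.58 in the naïve library (0.29 to 0.87). It was −0.14 at day 7 (−0.48 to 0.19) and 0.14 at day 14 (−0.06 to 0.34). Among deep Mrgprd cells at day 14 it was 0.73 (−0.41 to 1.82).

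Outside neurons, mural-like cells (pericytes and vascular smooth muscle) had the highest levels of Cacna2d1, Cacna1c, Cacna1h and Cacnb3 in all 3 libraries. Their Cacna2d1 level was 176 CPM in the naïve library (74 UMIs), 169 CPM at day 7 (80 UMIs) and 210 CPM at day 14 (153 UMIs). Cacna1c, the calcium entry route of smooth muscle, was at 143, 184 and 180 CPM there, and Cacna1h at 92.7, 108 and 77.0 CPM. For Cacna1c and Cacna1h the mural level was above that of neuron-like cells in every library. None of the intervals of the log2 ratios of these 3 genes over naïve left out 0 in mural-like cells. Fibroblast-like cells had Cacna2d1 at 46.2, 56.1 and 66.7 CPM from 12, 16 and 51 UMIs.

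Cacna1a was also counted in several classes. Myelinating Schwann-like cells had it at 38.4, 36.1 and 37.9 CPM, and endothelial-like cells at 35.8, 43.0 and 53.8 CPM, with a log2 ratio of 0.59 at day 14 (0.15 to 1.04). Its exons overlap those of Gm16183 on the opposite strand. Cacnb3 was at 13.7, 14.6 and 18.1 CPM in myelinating Schwann-like cells.

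Satellite glia-like cells, which wrap the neuronal cell bodies, had low counts of all 9 genes. Cacna2d1 was at 6.96 CPM in the naïve library (36 UMIs in 777 cells), 11.8 CPM at day 7 (50 UMIs in 500 cells) and 12.3 CPM at day 14 (69 UMIs in 694 cells). The injured libraries were higher by log2 0.76 (0.11 to 1.42) and 0.81 (0.21 to 1.44). Thinned to 2300 UMIs, 1.49%, 2.42% and 3.07% of these cells had a Cacna2d1 UMI (4.38%, 8.40% and 8.93% unthinned). In macrophage-like cells, taken as a class in which the channel has no known place, the thinned shares were 0%, 0.723% and 1.602% (0%, 1.42% and 2.01% unthinned). These came from 0, 4 and 5 UMIs in 67, 212 and 249 cells before thinning. With so few cells the naïve 0% cannot be told from a low level. Median depths were 5167, 7016.5 and 6803 UMIs in satellite glia-like and 2154, 4389 and 3584 UMIs in macrophage-like cells. Free RNA from neurons can add to such counts, and its part in the satellite glia-like level was not tested. Cacna1c in these cells came from 8, 19 and 13 UMIs and Cacnb3 from 12, 15 and 29 UMIs. In 50 lymphocyte-like cells of day 14, Cacna2d2, Cacna2d3, Cacna1b, Cacna1c, Cacna1h and Cacng2 had no UMI, which allows up to 19.7 CPM each.

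Glial transcripts were in turn counted in neuron-like cells. All 5 satellite glia markers were present, with a summed level of 324 CPM in the naïve library, 538 CPM at day 7 and 478 CPM at day 14, led by Fabp7 at 215, 391 and 339 CPM. The 6 markers of myelinating Schwann cells summed to 119, 159 and 124 CPM, led by Mbp, and at day 7 to 96.9 CPM in cells with at least 10000 UMIs. In the 113 shallower neuron-like cells of day 7 these markers summed to 1618 CPM. The shallow cells of the naïve and day 14 libraries had 107 and 134 CPM of them. The 5 markers of nonmyelinating Schwann cells summed to 1122, 999.6 and 1145 CPM, led by Scn7a in the naïve library and by L1cam, which neurons also express, in the injured ones. The 6 macrophage markers summed to 3.66, 17.8 and 12.7 CPM. The level of Cacna2d1 in these 4 classes themselves was at most 21.6 CPM (nonmyelinating Schwann-like cells, day 14, 10 UMIs). The 7 mural markers, whose class did carry Cacna2d1, summed to 202, 119 and 120 CPM, of which Rgs5 alone made 179, 96.0 and 102 CPM, and Kcnj8 was at 0 in each.

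Genes whose pattern was most like a member were sought over 28 profiles of class and library among 12681 genes, as Pearson correlations of log2(CPM + 1). The profiles share libraries and are dominated by neurons against other cells, so the correlations are descriptions. For Cacna2d1 they were Ncs1 (a neuronal calcium sensor, r = 0.932), Map1lc3a (r = 0.924) and Cdk15 (r = 0.915). Cacna1c was closest to Mark1 (r = 0.955), Agtr1a (r = 0.945) and Clstn2 (r = 0.921). The nearest gene was D130009I18Rik for Cacna2d2 (r = 0.954), Gpr139 for Cacna2d3 (r = 0.918), Fbxo25 for Cacna1a (r = 0.887), Tmem151b for Cacna1b (r = 0.947), Dmtn for Cacnb3 (r = 0.938) and Mrap2 for Cacng2 (r = 0.992).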

How the data were processed

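The matrices deposited by the authors hold UMI counts, and the submitters' processing notes name Cell Ranger 3.0.2 and build mm10. Counts are whole numbers without normalization, limited to barcodes called as cells. The annotation, strand setting and any downsampling are not given in the sources used here, and methods for these libraries were not found in the study's text.

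Barcodes with under 500 genes or over 20% mitochondrial UMIs were removed (596, 599 and 1080), and Scrublet (scanpy 1.11.5, expected rate 5%) marked 90 of 9662 cells (0.931%) as doublets, which were left out. A cell took the class whose markers were highest relative to the 50 highest cells, with a score of at least 0.25 and at least 2 markers, and was set apart as mixed where the next class reached 70% of the best score. Levels were summed counts as CPM, with exact Poisson, Clopper-Pearson and conditional binomial intervals at 95%. Where no UMI was counted, 3 counts set the upper limit. With 1 library per condition no test was run, and "higher" or "lower" by the rule means 2-fold with an interval that leaves out 0 among genes with at least 20 UMIs. All 9 genes were named in every class, as were list genes past the rule in 1 direction on both days and the 3 genes most correlated with each member, of which the text gives all 3 for Cacna2d1 and Cacna1c. Those of Cacna1h are not reported here. The calculation of the ratios was run on simulated Poisson counts, which hold counting error alone and no spread between cells, mice or libraries. Alternatives concerned the cell filter, doublets, class definition, depth, scaling, low values and the definition of injured cells. The members and lists were chosen with earlier results of these data known. Gene positions are from GENCODE vM21 (GRCm38) and promoters from RefSeq. Python 3.11.15, scipy 1.17.1 and leidenalg 0.10.2 were used.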

Additional observations from a re-analysis of the deposited data

Results flagged for a closer look

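Cells that carried markers of more than 1 class were set apart as mixed and left out of the main comparisons. They entered only as alternatives, which added those with neuron markers or took classes from clusters. Over the 3 libraries 47 mixed cells lay in neuron clusters. All 93 mixed cells of day 7, in whatever cluster, had Cacna2d1 at 308 CPM (251 to 373, 104 UMIs). The level was 40.2 CPM (20.05 to 71.8, 11 UMIs) in the 59 mixed cells of the naïve library and 41.9 CPM (26.5 to 62.8, 23 UMIs) in the 85 of day 14. The neuron cluster mostly of day 7 held 153 cells of that library, 98 of them neuron-like, but 10 naïve and 12 day 14 cells. The mixed cells of the 3 libraries therefore need not lie in the same clusters. The level of day 7 was flagged because it lay above that of the control library in cells that the main comparisons do not use.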

How the results depend on the processing

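The higher Cacna2d1 of neuron-like cells kept its sign under all 12 alternatives on both days, with log2 ratios of 0.23 to 1.10 at day 7 and 0.20 to 0.80 at day 14. The extremes at day 7 were the mean of per-cell CPM (1.10) and equal weights for the Mrgprd, Tac1 and Th types (0.23), which leave out all other neuron-like cells. At day 14 the ratio was 0.80 under the stricter cell filter, 0.60 as the mean of per-cell CPM, 0.65 with median-of-ratios scaling and 0.20 with equal weights. The equal weights, and leaving out the cluster mostly of day 7 (0.81 and 0.72), were chosen after seeing the data. The mean of per-cell CPM put 1 member past the rule as higher (Cacna2d1) and 3 as lower (Cacna2d2, Cacna2d3 and Cacna1h) at day 7, with 1292 genes higher (10.3%) and 1650 lower (13.1%), and 442 genes lower at day 14. All calls by this mean used the interval of the pooled counts, moved to the new ratio, which does not hold the error of a mean over cells. With at least 100 UMIs, 170 genes were higher and 61 lower at day 7 and 366 and 74 at day 14. Without a minimum, 529 and 102 passed at day 14, and the stricter cell filter put 1 member (Cacna1h) as lower there, beside 1.71% of genes. For cells with Atf3 over those without, the Cacna2d1 ratio was 0.25 (day 7) and 0.66 (day 14) as the mean of per-cell CPM. With at least 2 Atf3 UMIs it was −0.00436 in the naïve library, 0.82 at day 7 and 0.74 at day 14, and with a UMI of Atf3 or Sprr1a 0.56 and 0.40. By the mean of per-cell CPM 0 members were higher in the naïve library (3.93% of genes) and 1 at day 14 (7.29%). With at least 2 Atf3 UMIs 2 were higher in the naïve library (3.9%), and with Atf3 or Sprr1a 1 was higher at day 7 (4.87%) and 1 at day 14 (3.42%). The cause of these differences was not tested. The small ratios of Cacna1a, Cacna1b and Cacna1c at day 7 and of Cacnb3 at day 14 took the other sign under at least 1 alternative, as did Cacng2 at day 14 under equal weights (0.83 in place of −0.27) and the lower Cacnb3 of cells with Atf3 at day 7 (highest ratio 0.08). No paired analysis was possible because there was only 1 library a condition, and for the same reason no replicate could be left out. The 113 shallow neuron-like cells of day 7 limit what shares of cells and rare transcripts such as Cacna2d3, Cacna1h and Cacng2 can show there.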
